A study of Mus musculus with 54 samples.

Results

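The genes of hypothalamic neuropeptides and of their regulators were examined in mouse brain RNA, sequenced from cerebellum, cortex and striatum. The members were 10 genes chosen by name from 47069 genes in the table: Pmch, Hcrt, Oxt, Avp, Trh, Pomc, Agrp, Hdc, Otp and Sim1. The choice was made with earlier results of these data in view, and the members' levels by library and region are therefore given as a description, with no test. The libraries came from 18 mice at 8 weeks of age on a C57BL/6 background, 10 Mbd5+/GT (5 females and 5 males) and 8 wild-type (WT) littermates (5 females and 3 males), with 1 library per mouse and region and 54 in all. Mbd5+/GT mice are heterozygous for a gene trap inserted into Mbd5, which lowers its expression (a hypomorphic allele), and homozygous mice die around birth. The mice came from 3 litters, of which litter 1 was all female and litter 2 all male. A library is named below by its mouse number and region.

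Neurons of the hypothalamus release peptides that govern feeding, sleep, water balance, birth and lactation, stress and body temperature. Pmch (melanin-concentrating hormone) and Hcrt (hypocretin, or orexin) are made by separate neurons of the lateral hypothalamus, and Oxt (oxytocin) and Avp (vasopressin) by separate neurons of the paraventricular and supraoptic nuclei. Trh encodes thyrotropin-releasing hormone, which is also made outside the hypothalamus. Pomc, the precursor of melanocortins and of adrenocorticotropin, and Agrp, an antagonist at the melanocortin receptors, mark opposing neurons of the arcuate nucleus, and Pomc is in addition a main product of the pituitary. Hdc makes histamine in the tuberomammillary nucleus and in mast cells. Otp and Sim1 are transcription factors needed for the oxytocin, vasopressin and Trh neurons of the paraventricular nucleus to form. The hypothalamus was not among the regions collected. The question was which libraries carried these RNAs, and at what level each region otherwise held them.

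The sequences upstream of Pmch, Hcrt, Oxt and Avp are shown, since the pairs Pmch and Hcrt, and Oxt and Avp, were each high in the same libraries. Each is the 250 bases before the RefSeq transcript start, 5′ to 3′, in GRCm38.p6. Capitals mark matches on either strand to TATAAA, the core of a TATA box, or to ACGTG, a core bound by bHLH-PAS proteins, the family of Sim1.
Pmch, chr10:88090822-88091071, plus strand: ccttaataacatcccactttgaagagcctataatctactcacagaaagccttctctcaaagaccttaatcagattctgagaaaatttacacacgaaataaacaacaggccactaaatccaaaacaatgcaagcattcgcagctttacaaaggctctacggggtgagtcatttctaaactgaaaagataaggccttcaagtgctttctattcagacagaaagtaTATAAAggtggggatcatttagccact
Hcrt, chr11:100762932-100763181, minus strand: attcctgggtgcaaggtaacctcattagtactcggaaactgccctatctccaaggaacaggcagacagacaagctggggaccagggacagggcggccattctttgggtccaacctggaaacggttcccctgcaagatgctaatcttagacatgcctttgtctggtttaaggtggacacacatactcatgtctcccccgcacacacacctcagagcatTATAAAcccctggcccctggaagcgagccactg
Oxt, chr2:130575919-130576168, plus strand: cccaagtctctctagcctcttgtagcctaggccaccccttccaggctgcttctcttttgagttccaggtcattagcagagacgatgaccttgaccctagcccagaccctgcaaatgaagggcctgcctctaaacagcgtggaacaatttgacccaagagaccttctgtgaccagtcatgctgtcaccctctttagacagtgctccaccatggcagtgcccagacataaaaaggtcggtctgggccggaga
Avp, chr2:130582589-130582838, minus strand: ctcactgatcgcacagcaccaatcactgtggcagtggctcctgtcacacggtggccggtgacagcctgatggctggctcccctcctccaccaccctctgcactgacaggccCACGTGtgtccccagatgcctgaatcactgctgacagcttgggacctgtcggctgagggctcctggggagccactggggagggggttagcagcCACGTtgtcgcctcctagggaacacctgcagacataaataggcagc
Of the 9 members with a promoter in the table, 4 held TATAAA (Pmch, Hcrt, Pomc and Sim1), against 12.4% of 32851 promoters of the same length. The matches in Pmch, Hcrt and Pomc lay on the gene's own strand, between −33 and −20 from the start. That in Sim1 lay on the opposite strand, at −14 to −9. ACGTG was found in 2, Avp and Pomc, against 16.6% of all promoters. In Avp it lay at 3 positions, of which 2 overlapped on opposite strands as CACGTG. Searches on both strands for TAATTA (4.84% of all promoters), TGACGTCA (1.55%) and CAGCTG (13.0%) matched Pomc for the first and no member for the other two. The letters alone say nothing about whether a factor binds.

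The 2 genes Oxt and Avp lie next to each other on chromosome 2 and point at each other, Oxt at chr2:130576173-130577054 on the plus strand and Avp at chr2:130580620-130582554 on the minus strand. Their transcripts (GENCODE, Oxt-201 of 537 bases and Avp-201 of 577 bases) share an identical run of 127 bases inside the coding region, which lies at bases 156 to 282 of Oxt and 144 to 270 of Avp. It is printed in capitals with 20 bases on each side, because a read that falls wholly inside it cannot be assigned to either gene.
Oxt, bases 136 to 302: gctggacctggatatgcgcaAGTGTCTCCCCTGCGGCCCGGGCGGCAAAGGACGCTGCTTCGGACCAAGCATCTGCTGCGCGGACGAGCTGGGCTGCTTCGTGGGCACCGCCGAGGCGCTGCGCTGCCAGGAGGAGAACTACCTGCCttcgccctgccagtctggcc
Avp, bases 124 to 290: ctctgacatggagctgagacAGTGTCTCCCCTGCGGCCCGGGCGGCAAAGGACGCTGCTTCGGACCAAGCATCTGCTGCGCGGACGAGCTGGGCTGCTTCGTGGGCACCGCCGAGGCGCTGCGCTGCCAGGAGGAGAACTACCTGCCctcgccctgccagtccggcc
Of 488 windows of 50 bases in Oxt, 78 occurred in Avp as well. The counting option used by the authors leaves out reads that align to more than 1 place, so the counts of both genes come from the rest of their transcripts. Pmch (chr10:88091072-88092375, plus strand) shares 435 bases, or 58.1% of its exons, with Parpbp on the opposite strand. Agrp (chr8:105566698-105637393, minus strand) shares 114 exon bases with Gm5914 and with Ctcf. Which strand the counts used was not stated, so part of the Agrp and Pmch counts could belong to these neighbours. Parpbp had at most 24 counts in any library.

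Gene counts per library ran from 25295973 to 49027399, levels in CPM are counts scaled to a common total of gene counts per library, and intervals given for counts cover counting error only. Mbd5 itself, the trapped gene, was lower in Mbd5+/GT mice in all 3 regions, by log2 fold changes of −0.34 ± 0.05 (SE) in cerebellum, −0.49 ± 0.05 in cortex and −0.51 ± 0.05 in striatum (edgeR, adjusted p = 0.00912, 0.00012 and 9.41e-05; n = 10 and 8). Some libraries went against their region label. The cerebellum library of M755 held 143 CPM of 6 summed cerebellar neuron genes, against 1201 in M754 and 2536 to 4303 in the other 16, with 56 counts of Gabra6, the granule cell receptor subunit that had a median of 22074. The striatum library of M754 held 296 CPM of 9 striatal neuron genes and that of M761 held 777, against 1429 to 7648 in the other 16. All cortex libraries held 852 to 1748 CPM of the cortical neuron genes, with the lowest sum in M758. The levels by region and the members' genotype comparisons are given with and without these libraries, but no genotype fit in striatum left out M754 and M761 together.

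The members fell into a group that most libraries hardly contained and a group that every library contained. Hcrt, Sim1, Avp, Oxt, Agrp, Otp and Pmch had medians of 0 to 6.5 counts per library in each region, while Pomc and Hdc had more than 10 counts in all 54 libraries and Trh in all 36 of cortex and striatum. Against this background, 12 of 54 libraries stood out. A library was counted as carrying a member where its CPM was at least 5-fold the median of the other 17 libraries of its region, or, where that median was lower than the CPM worth 3 counts, at least 5-fold that floor. By that measure 10 of 10 members had a carrying cortex library, 7 a striatum library and 3 a cerebellum library. The share among all genes with over 4 counts in any of the region's libraries was 2.39% (cortex), 4.26% (striatum) and 5.66% (cerebellum). The rule by which the genes were chosen used these levels, so nothing is read from that difference. The nearest values above the limit were Trh in the cortex of M762 (5.2-fold) and M754 (5.5-fold), and the nearest below were Otp in the cerebellum and Oxt in the cortex of M761 (both at 4.7-fold).

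**Figure D1:**
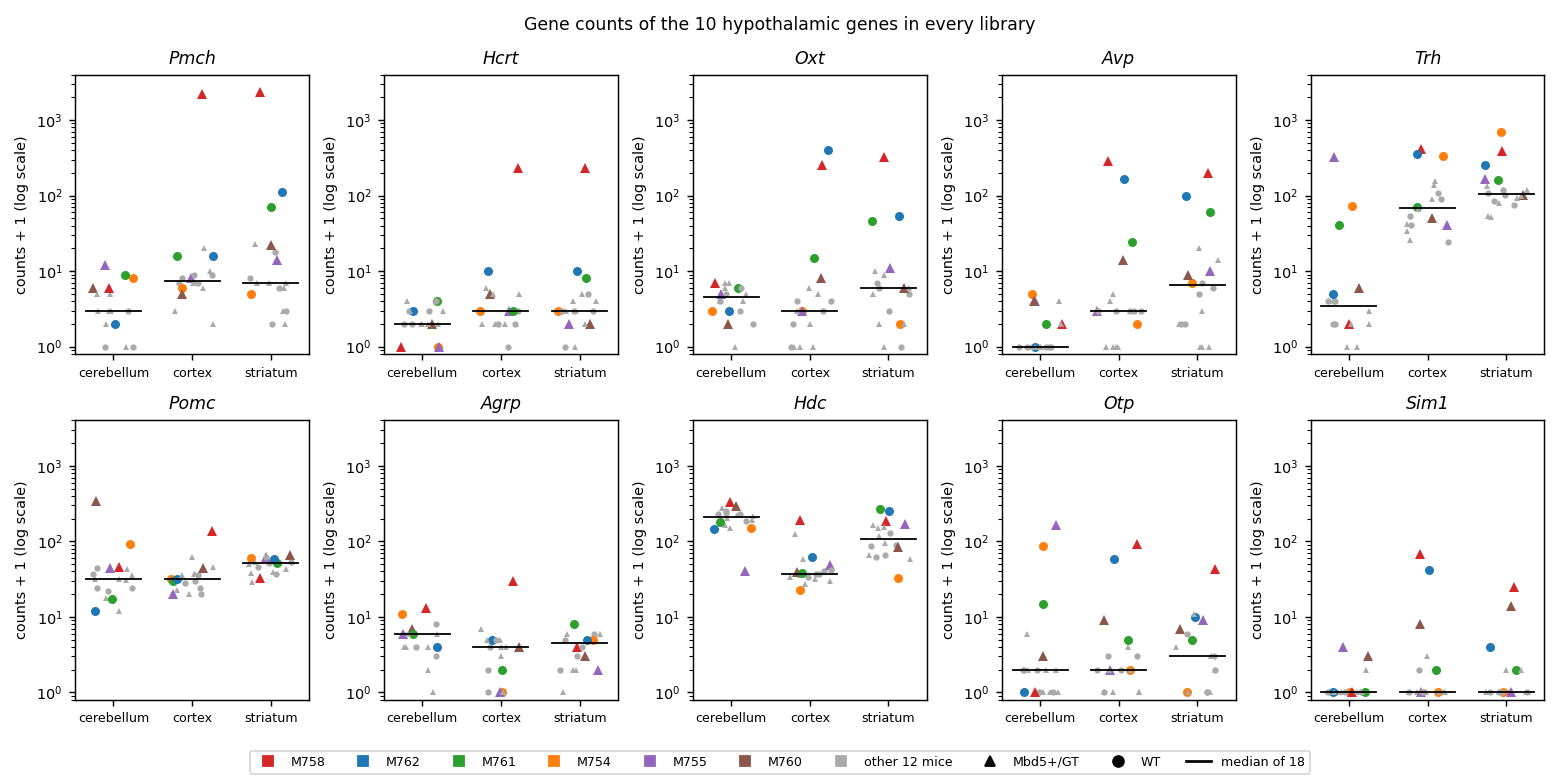
Counts plus 1 (log scale) of each gene in the 18 libraries of each region, with triangles for Mbd5+/GT and circles for WT, horizontal lines at the medians, and the 6 mice that had a carrying library in colour. Pmch lies at 2208 and 2318 counts in the cortex and striatum of M758 and at 112 or fewer in the other 52 libraries, whereas Hdc and Pomc lie above 10 counts in all 54.

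The peptides of the lateral hypothalamus were concentrated in 1 mouse. Pmch had 2208 counts in the cortex and 2318 in the striatum of M758, a female Mbd5+/GT mouse. In the other cortex libraries it had 1 to 19 counts, and in the other striatum libraries 1 to 22 outside M762 (112) and M761 (69), both female WT mice. The cortex library of M758 was 376-fold, and its striatum library 337-fold, over the median of the other 17. M758 held 94.5% of all Pmch counts of the cortex and 88.6% of those of the striatum. Its cerebellum library had 5 counts of Pmch, and the highest count of that region was 11, in M755.

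Hcrt was high in the same libraries at lower counts. It had 232 counts in the cortex and 228 in the striatum of M758, at least 77.3-fold and 76.0-fold over the median of the other 17 libraries (taken as 3 counts, which it lay under), and at most 9 counts in any other library of the series. The next counts, 9 in both the cortex and the striatum of M762 and 7 in the striatum of M761, were from mice that carried Oxt and Avp. Pmch outnumbered Hcrt by 9.52 in the cortex and 10.2 in the striatum of M758, by 9.86 in the striatum of M761 and by 12.4 in that of M762. As a share of both genes' counts, Pmch was 90.5% (95% Clopper-Pearson interval 89.3% to 91.6%), 91.0% (89.9% to 92.1%), 90.8% (81.9% to 96.2%) and 92.6% (86.3% to 96.5%), so these 4 intervals overlapped. In the cortex of M762, with 15 counts of Pmch and 9 of Hcrt, it was 62.5% (40.6% to 81.2%), below them without overlap. Parpbp, on the other strand of Pmch, had 8 and 12 counts in the M758 libraries and was not high there. In bulk tissue, more cells of a type and more RNA per cell cannot be told apart, here or for any value below.

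Oxt and Avp were carried by 3 mice, and in different proportions. Oxt had 398 counts in the cortex of M762 and 251 in that of M758, and 0 to 14 in the other 16 cortex libraries. In striatum it had 325 counts in M758, 53 in M762, 45 in M761 and 0 to 10 in the other 15. Avp had 283 counts in the cortex of M758, 165 in M762, 23 in M761 and 13 in M760, and 0 to 4 in the other 14. In striatum it had 199 counts in M758, 97 in M762 and 59 in M761, and 0 to 19 in the rest. In cerebellum the highest count was 6 for Oxt and 4 for Avp.

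The share of Oxt in the pair of hormones also varied between libraries. It was 70.7% (66.7% to 74.4%) in the cortex of M762, 62.0% (57.7% to 66.2%) in the striatum of M758, 47.0% (42.7% to 51.3%) in the cortex of M758, 43.3% (33.6% to 53.3%) in the striatum of M761 and 35.3% (27.7% to 43.5%) in that of M762. The 2 libraries of M762 therefore lay at opposite ends, with intervals that did not overlap. These intervals cover counting error only, and each library is a single sample.

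The transcription factors went with the hormones in cortex. Otp had 91 counts in the cortex of M758 and 57 in that of M762, and 0 to 8 in the other 16, while Sim1 had 66 and 41 in the same libraries and 0 to 7 in the others. In striatum Otp had 42 counts in M758 and 0 to 10 elsewhere, and Sim1 had 24 counts in M758, 13 in M760 and 0 to 3 elsewhere. The striatum of M761 carried Oxt and Avp with 4 counts of Otp and 1 of Sim1. Otp was 58.0% (49.8% to 65.8%) and 58.2% (47.8% to 68.1%) of the pair's counts in the cortex of M758 and M762, and 63.6% (50.9% to 75.1%) in the striatum of M758.

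**Figure D2:**
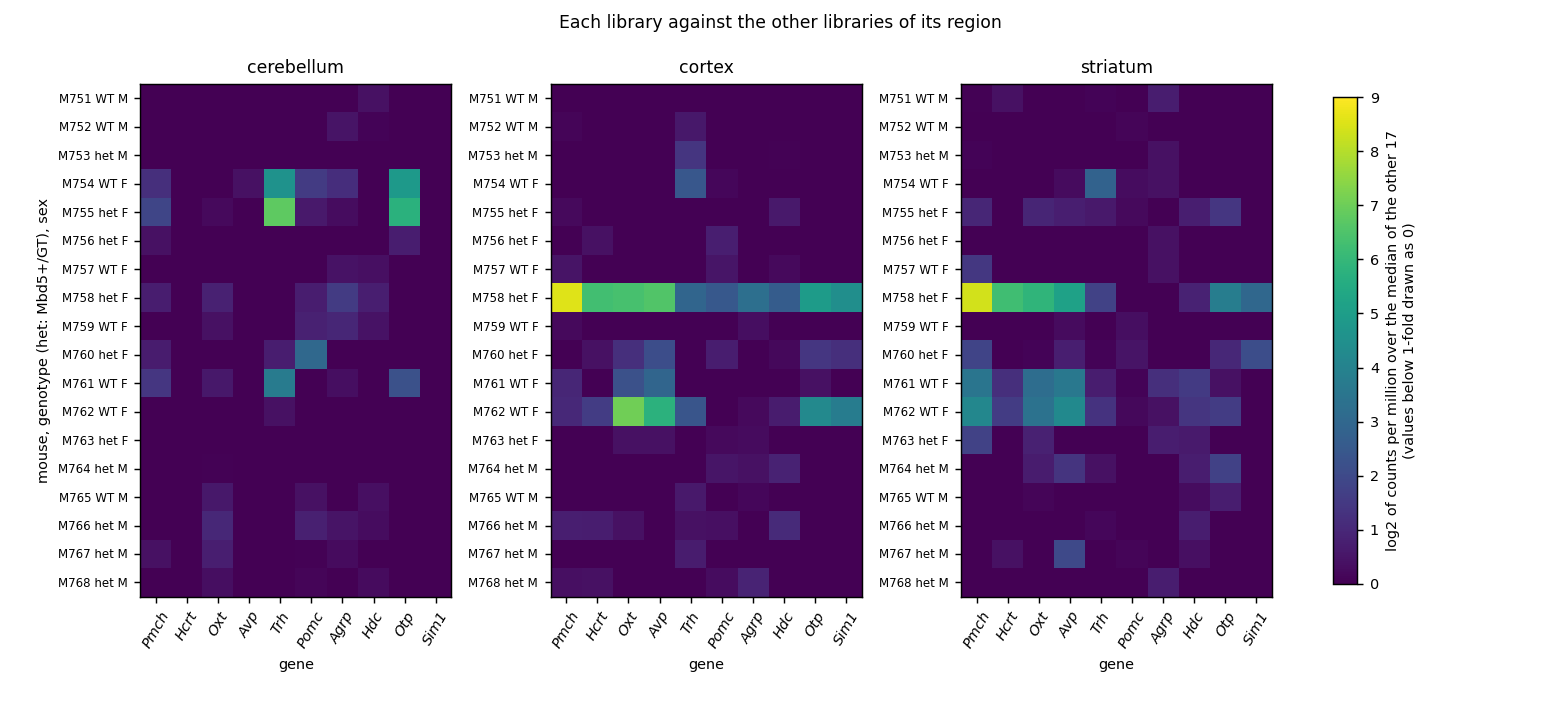
Colour gives the log2 of a library's CPM over the median of the other 17 libraries of its region (raised to the CPM of 3 counts where lower), with 1 row per mouse, labelled with genotype and sex, and 1 column per gene. The rows of M758 and M762 stand out in cortex, those of M758, M761 and M762 in striatum, and only Trh, Pomc and Otp reach 5-fold in cerebellum.

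Trh and the arcuate genes followed the same libraries only in part. Trh was highest in the cortex of M758 (408 counts), M762 (351) and M754 (328), where the other 15 libraries had 23 to 153, and in the striatum it was highest in M754, a female WT mouse, with 702 counts against 51 to 383 in the rest. M754 had 5 counts of Pmch, 2 of Oxt and 1 each of Avp and Otp in cortex, and 4, 1, 6 and 0 in striatum. Its striatum library had instead 2300 counts of Th, the dopamine-synthesising enzyme with a median of 201.5, and 87 of the dopamine transporter gene Slc6a3 (median 7.5), and its cortex library had 730 of Th and 55 of Slc6a3. The 5 midbrain dopamine genes summed to 86.3 CPM in that striatum library, against 5.51 to 24.9 in the other 17. Their part in the Trh value was not tested.

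Agrp and Pomc were high in the cortex of M758 and not in its striatum. Agrp had 29 counts in that cortex library and 0 to 6 in the other 17, and Pomc had 138 there and 19 to 61 in the other 17. In the striatum of M758 Agrp had 3 counts and Pomc 32, within the ranges of 0 to 7 and 28 to 65 of the other libraries. Scaled for depth, the ratio of cortex to striatum in this mouse was 5.35 (95% counting interval 3.62 to 8.13) for Pomc, 12.0 (3.72 to 61.6) for Agrp, 2.69 (1.85 to 3.97) for Otp and 3.41 (2.11 to 5.70) for Sim1. It was closer to 1 for Pmch at 1.18 (1.11 to 1.25), Hcrt at 1.26 (1.05 to 1.52) and Oxt at 0.96 (0.81 to 1.13), while Avp stood at 1.77 (1.47 to 2.13). The libraries of M762 split another way. There the ratio of cortex to striatum was 6.77 (5.07 to 9.19) for Oxt, 5.71 (2.80 to 13.1) for Otp and 12.3 (3.93 to 62.2) for Sim1, but 0.121 (0.0654 to 0.208) for Pmch and 0.223 (0.166 to 0.296) for Hdc. These ratios compare single libraries of 1 mouse.

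Hdc was carried at 5-fold in the cortex of M758 alone, with 189 counts against 22 to 125 in the other 17. In striatum it had 266 counts in M761, 250 in M762 and 187 in M758, the highest values of a range that ran down to 32. The vesicular monoamine transporter gene Slc18a2, which histamine neurons use, had 208 counts in the cortex of M758 (median 34) and 493, 153 and 154 in the striatum of M761, M762 and M758 (median 26.5). Slc18a2 is on the lists of midbrain dopamine genes and of peptide processing and turnover genes. Each of these lists also had 1 gene at 5-fold in the striatum of M755, M757 and M763. Hdc stood there at 1.69, 0.78 and 1.55 times the median of the other 17 libraries. The mast cell genes Cpa3, Cma1, Mcpt4, Tpsb2 and Fcer1a were at 0 to 5 counts in every library. Kit, which neurons also express, made up nearly all of that list's sum.

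Other genes of the hypothalamus, a list of 27, were high beside the members. In the cortex of M758, 14 of them were at least 5-fold over the other 17 libraries, in the cortex of M762 3, and in the striatum of M758, M761 and M762 8, 9 and 5. Of all genes with over 4 counts in any of the region's libraries, 0.76%, 0.096%, 1.06%, 0.82% and 0.74% were at 5-fold in the same order. In cerebellum there were 10 in M755, 9 in M754 and 7 in M761, which carried Trh (4.14%, 2.62% and 1.64% of all genes). Libraries with no member at 5-fold had such genes too, 4 in the cortex of M766, 7 in the striatum of M763 and 4 in the cerebellum of M756. The shares of all genes in these were 0.76%, 0.69% and 0.62%. The cortex of M758 had 31 counts of Ghrh (growth hormone-releasing hormone, median 1), 40 of Nr5a1 (a factor of the ventromedial nucleus, median 4), 27 of Six6 (median 0), 21 of Npvf (median 0.5) and 517 of Irs4 (median 32.5). In the striatum of M758, Nr5a1 had 5 counts and Npvf 0, while Lhx9 had 440 (median 9.5), Lmx1a 66 (median 5) and Foxb1 35 (median 1). The list's sum did not rank the libraries as the members did. It was 386 CPM in the striatum of M761 and 303 in that of M763, a mouse with 22 counts of Pmch and 1 of Avp there, and 187 in that of M758.

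Markers of other neighbouring tissue were high in some of the carrying libraries as well. The thalamus genes summed to 1261 CPM in the striatum of M758 and 725 in that of M762, the 2 highest, with 496 in M761 next (median 147). In the cortex of M758 and M762 they summed to 525.7 and 292, again the 2 highest, against a median of 226. The median of the same list in cerebellum was 1073 CPM, so its sum was not particular to the thalamus. The choroid plexus genes, led by Ttr (125610 counts in the striatum of M758, median 2608), summed to 4223 and 4100 CPM in the striatum of M758 and M762, but to 6263 in that of M751, which had 7 counts of Pmch and 2 of Oxt. In cortex they were highest in M758 (1334 CPM). Of 6 amygdala and bed nucleus genes, 3 were at 5-fold in the cortex of M758, and 3, 4 and 3 in the striatum of M758, M761 and M762. Libraries with no member at 5-fold had such genes too, with 4 in the striatum of M763 and 2 in the cortex of M755. Lhx9 is on this list and on the hypothalamic one. Of 8 pallidum, septum and basal forebrain genes, 4 were at 5-fold in the striatum of M761 and 3 in that of M763. The part of these tissues in the members' values was not tested.

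In cerebellum, Trh and Otp were high in libraries with Hox RNA, and Hcrt, Oxt and Avp were not. Trh had 326 counts in M755, 72 in M754, 40 in M761 and 0 to 5 in the other 15, and Otp had 163, 86, 14 and 0 to 5 in the same order. Sim1 had 3, 0 and 0 counts in these libraries, so that Otp was 98.2% (94.8% to 99.6%) of the pair in M755 and 100% (95.8% to 100%) in M754. Hcrt, Oxt and Avp had at most 3, 5 and 4 counts there. Pmch had its highest values of the region there, at 3.67-, 2.33- and 2.67-fold over the floor of 3 counts in the same order, under the 5-fold limit. The Hox genes, which mark the hindbrain and spinal cord and are mostly silent in the forebrain, were added as a list after the first marker sums were seen. They summed to 599 CPM in M755, 176 in M754, 68.6 in M761 and 65.9 in M756, led by Hoxb8 with 3601 counts in M755. M756 had 2 counts of Trh and 5 of Otp. In cortex and striatum the Hox sum was at most 0.502 CPM in any library, M758 and M762 included. Hdc had 40 counts in the cerebellum library of M755 and 144 to 328 in the other 17.

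Pomc had 336 counts in the cerebellum of M760, a female Mbd5+/GT mouse, 90 in M754 and 11 to 45 in the other 16. Pituitary hormone genes were high in the same library, with 8070 counts of Prl (prolactin, median 1.5), 996 of Gh (growth hormone, median 0.5) and 66 of Cga (median 0). The pituitary list summed to 202 CPM there, to 17.1 in M765, whose Pomc was within the range of the rest, and to 13.8 in M754. The same list was highest in M760 also in cortex (40.5 CPM) and striatum (25.7 CPM), where Pomc had 43 and 65 counts. In the cortex of M758, where Pomc and Agrp were high, the pituitary list summed to 1.1 CPM with 6 counts of Prl and 2 of Gh. The part of these genes' source in the Pomc values was not tested.

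**Figure D3:**
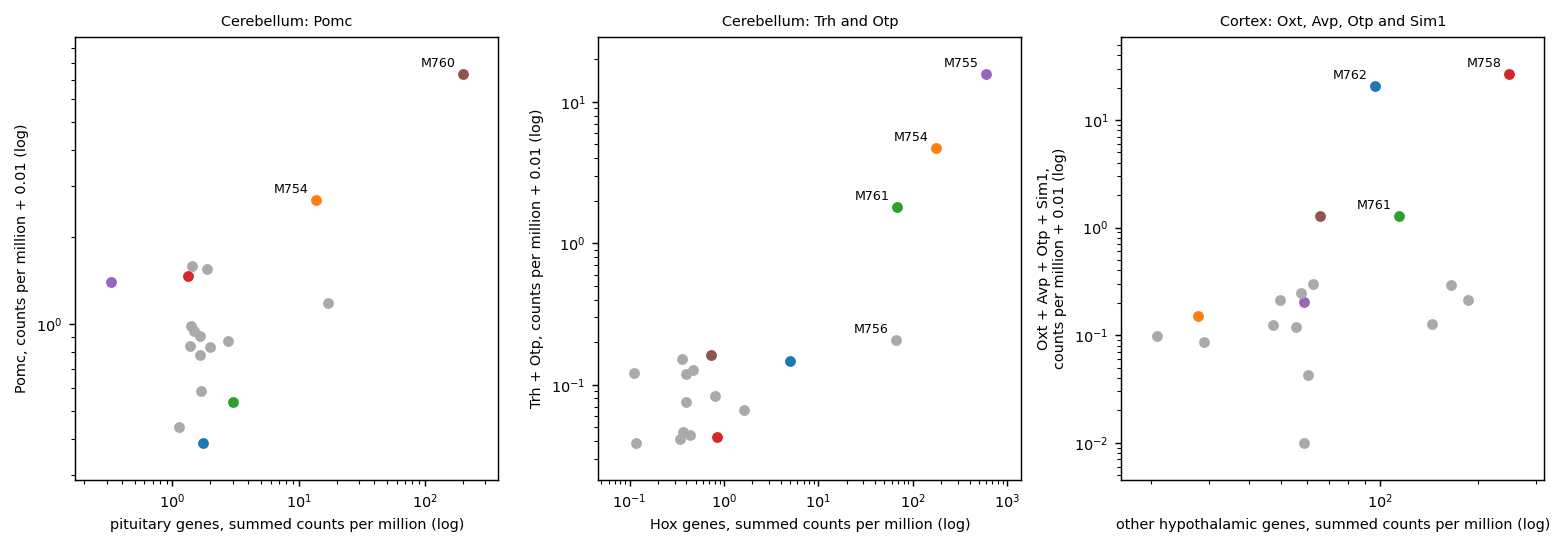
Each point is a library, with CPM plus 0.01 of the named members (vertical, log scale) against the summed CPM of a marker list (horizontal, log scale): Pomc against pituitary genes and Trh plus Otp against Hox genes in cerebellum, and Oxt plus Avp plus Otp plus Sim1 against 27 other hypothalamic genes in cortex. M760 is highest on both axes for Pomc, M755 for Trh plus Otp and M758 for the cortex genes, and colours mark the same 6 mice as in the plot of counts by region.

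All 12 carrying libraries came from 6 mice, M754, M755, M758, M760, M761 and M762. All 6 were female, of 10 females, with 0 of 8 males. By genotype they were 3 of 10 Mbd5+/GT and 3 of 8 WT mice. Litter 1, all female, gave 4 of 6, litter 2, all male, 0 of 5, and litter 3 gave 2 of 4 females and 0 of 3 males. The mice were singled out by these values, so the split by sex and litter is a description, and sex, litter and dissection cannot be told apart here.

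The levels that each region otherwise held were taken from the 14 libraries per region that carried none of the members, which also leaves out the libraries that went against their region label. Per kilobase of all annotated exons of a gene, the highest medians were those of Trh in striatum (2.41 CPM per kb) and cortex (1.30), Pomc in striatum (1.28) and Hdc in cerebellum (1.13). That order depends on the length used. The exons of Hdc cover 6389 bases, but its coding transcript Hdc-201 has 2392, and that shorter length would place Hdc higher. The order of Trh was striatum with a median of 3.33 CPM (1.82 to 5.37), cortex with 1.79 (0.684 to 5.51) and cerebellum with 0.0367 (0 to 0.138). Cortex and striatum overlapped, and in the libraries kept, cerebellum lay below both without overlap. That gap rests on leaving out libraries that were high in Trh, since over all 18 cerebellum libraries Trh ran up to 10.5 CPM. Hdc had a median of 7.23 CPM in cerebellum (4.95 to 10.7), 3.18 in striatum (2.18 to 5.53) and 1.20 in cortex (0.834 to 2.55), with overlap between the neighbours in that order. Pomc had 1.68 CPM in striatum (0.939 to 2.39), 1.01 in cortex (0.677 to 1.63) and 0.881 in cerebellum (0.378 to 1.58), also overlapping. The other members had medians of at most 0.213 CPM, or 6 counts, in every region. When only the libraries carrying the same gene were left out, the ranges were wider, with Trh in striatum up to 12.0 CPM (M758), Hdc in cerebellum down to 1.29 (M755) and Hdc in striatum from 1.12 (M754) to 9.50 (M761), and the medians were 3.48, 6.41 and 3.62 CPM. Over all libraries, Sim1 was at 0 counts in 15, 11 and 12 of 18 of cerebellum, cortex and striatum. A count of 0 allows up to 3 counts, or 0.0612 to 0.119 CPM at these depths.

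The genes whose log2 CPM ranked most like a member's over the 18 libraries of 1 region were looked up among those that passed the count filter, as a description. For Hdc in cerebellum they were Ppp1r15a (Spearman's rho 0.94), Bpifa5, Tesc, Coq8a and Flcn, for Trh in striatum Plpp4 (0.88), Chrna3, Smo, Patj and Oas2, and for Pomc in striatum Gimap1 (0.82), Hyal2, Tnfsf12, Manbal and Gm9794. The first alone is given for the members at low counts. For Otp in cerebellum it was Lpl (0.91), for Agrp in cerebellum Art3 (0.84), and in cortex it was Gm10180 (0.84) for Pmch, Lmx1b (0.83) for Hcrt, Atp13a4 (0.81) for Oxt, Pcdhb3 (0.81) for Avp and Ano5 (0.84) for Sim1. By Pearson's correlation at most 1 of the 5 first genes was shared for any member (Avp and Agrp), and 0 for the other 8. The libraries share depth and dissection, and the low members are mostly ties near 0, so the named genes are not stable neighbours.

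Between genotypes, few members could be tested, and none differed at an adjusted p under 0.05. To be tested, a gene needed over 4 counts in 8 or more of a region's libraries, which 3 members passed in cerebellum (Pomc, Agrp and Hdc), 4 in cortex (Pmch, Trh, Pomc and Hdc) and 6 in striatum (Pmch, Oxt, Avp, Trh, Pomc and Hdc). Hcrt, Otp and Sim1 passed in no region. With edgeR's quasi-likelihood test and surrogate variables, 0 of 3, 0 of 4 and 0 of 6 had an adjusted p under 0.05, against 0.00551% of 18160 genes in cerebellum, 0.0107% of 18661 in cortex and 0.00539% of 18546 in striatum. At an unadjusted p under 0.05 the counts were 0, 3 and 0, against 2.75%, 8.47% and 7.44% of all genes. DESeq2's Wald test also gave 0 at an adjusted p under 0.05 in every region.

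The 3 members past the unadjusted threshold in cortex were Pmch, Pomc and Hdc, all higher in Mbd5+/GT (3.96% of all genes were). Pmch in cortex had 1 to 2208 counts in Mbd5+/GT and 5 to 15 in WT mice. In CPM only M758 lay above the WT range of 0.175 to 0.465, since the 19 counts of M766, the deepest library, came to 0.388 CPM. The log2 fold change of Pmch was 3.27 ± 1.34 (SE; edgeR, unadjusted p = 0.0301, adjusted p = 0.523). Those of Pomc and Hdc were 0.72 ± 0.30 (adjusted p = 0.519) and 0.68 ± 0.29 (adjusted p = 0.534). Without the libraries of M758 and M762, which carried the hypothalamic genes, they stood at −0.14 ± 0.37 for Pmch, 0.31 ± 0.20 for Pomc and 0.36 ± 0.21 for Hdc (unadjusted p = 0.70, 0.142 and 0.115), and without M758 alone that of Pmch was −0.21. Trh in cortex stood at −0.17 ± 0.60 (adjusted p = 0.977). Over 43758 divisions of the mice, the exact permutation test of single genes gave two-sided p = 0.96 for Pmch, 0.119 for Pomc and 0.234 for Hdc in cortex, and at least 0.119 for all 27 members and regions with more than 4 counts anywhere (Benjamini-Hochberg adjusted, all 0.96).

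In striatum, Pmch had a log2 fold change of 0.35 ± 0.92 (adjusted p = 0.971), Oxt −0.01 ± 0.75, Avp −0.20 ± 0.78, Trh −0.32 ± 0.45, Pomc −0.11 ± 0.17 and Hdc 0.33 ± 0.22 (edgeR, all adjusted p of at least 0.796). Without M758, M761 and M762, Pmch stood at −0.01 ± 0.56 and Hdc at 0.56 ± 0.23 (unadjusted p = 0.027, adjusted p = 0.93). Without M754 Trh stood at 0.03 ± 0.18, and the 6 members lay between −0.14 and 0.37. In cerebellum Pomc had 0.68 ± 0.59, Agrp −0.48 ± 0.36 and Hdc −0.26 ± 0.14 (all adjusted p of 1.0). Without M754, M755, M760 and M761 they stood at 0.01 ± 0.13, −0.32 ± 0.41 and −0.15 ± 0.10.

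**Figure D4:**
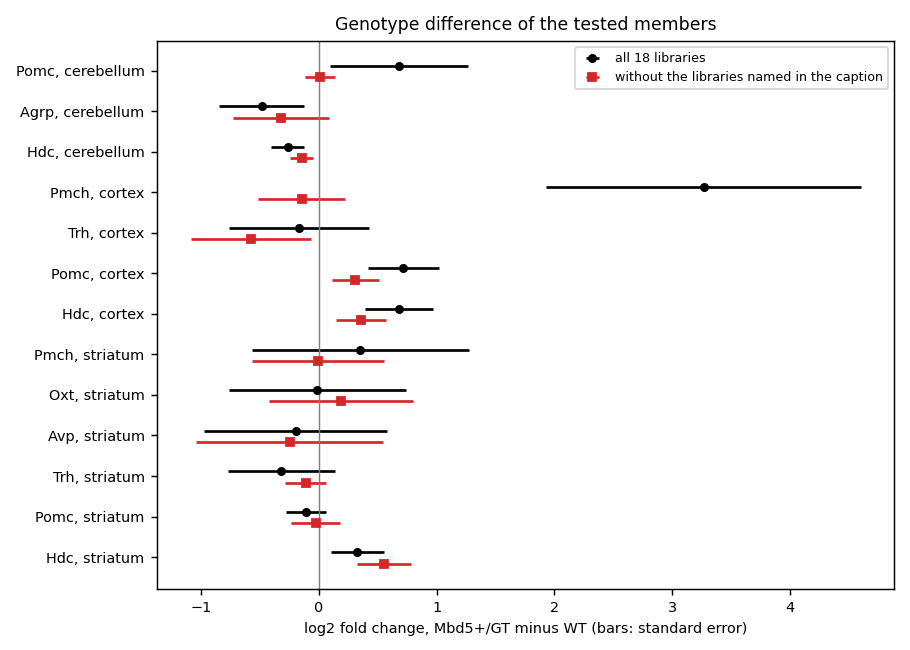
Log2 fold change (Mbd5+/GT minus WT, with bars of 1 standard error) of the 13 tested members over regions, in the fit of all 18 libraries (black) and without the libraries of M754, M755, M760 and M761 in cerebellum, M758 and M762 in cortex, and M758, M761 and M762 in striatum (red). Pmch in cortex moves from 3.27 to −0.14 and Pomc in cerebellum from 0.68 to 0.01.

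The genotype effect was not shown to differ between regions for any of the 8 members that passed the filter over all 54 libraries, with adjusted p of at least 0.989 in each of the 3 contrasts (edgeR, 0 genes of 20477 called in any contrast). Agrp had an unadjusted p under 0.05 for cortex minus cerebellum (1.74 ± 0.81, unadjusted p = 0.0370) and for striatum minus cortex (−1.82 ± 0.85, unadjusted p = 0.0361), against 1.11% and 4.22% of all genes. For striatum minus cerebellum 0 of 8 had one, against 2.68%. With the mouse as a replicate block these were 1.35 ± 0.82 (unadjusted p = 0.107) and −1.40 ± 0.86 (unadjusted p = 0.112). For Pmch, cortex minus cerebellum was 4.45 ± 2.51 without and 0.02 ± 1.53 with the block. Each of the Agrp differences named above involved cortex, where Agrp had 29 counts in M758 and 0 to 6 in the other 17 libraries. The contrasts between regions were not run without M758.

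The receptors of these peptides and of histamine are made by neurons in many brain regions. Of a list of 18, 9, 13 and 12 were tested in cerebellum, cortex and striatum, with 0 at an adjusted p under 0.05. At an unadjusted p under 0.05 there were 0, 3 and 1, against 2.75%, 8.47% and 7.44% of all genes. In cortex these were Mchr1, the melanin-concentrating hormone receptor, at −0.22 ± 0.08, Hrh2, a histamine receptor, at −0.24 ± 0.10, and Mc3r, a melanocortin receptor, at 0.51 ± 0.20 (edgeR, adjusted p = 0.48, 0.537 and 0.503). In striatum Mc3r stood at −0.75 ± 0.32 and Hrh2 at −0.36 ± 0.18 (adjusted p = 0.64 and 0.69), and in cerebellum Oxtr, the oxytocin receptor, at 0.37 ± 0.19 and Hrh2 at −0.26 ± 0.14 (both adjusted p of 1.0). The median log2 fold change of the list was −0.16, −0.13 and −0.14 in cerebellum, cortex and striatum, where that of all genes lay between −0.0035 and −0.0099. In cerebellum it was 0.0082 without the library of M755 and 0.026 without surrogate variables, so that its sign turned with 1 library or 1 setting. In cortex it kept its sign at −0.030 without M753 and turned to 0.081 with no filter, a setting that also tests genes at low counts. Alternatives for striatum are not given here.

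The 17 genes that process, store or clear peptides and histamine were tested in every region, with 0 at an adjusted p under 0.05. At an unadjusted p under 0.05 they numbered 1, 1 and 0, against 2.75%, 8.47% and 7.44% of all genes. Pcsk1, a prohormone convertase, stood at 0.22 ± 0.08 in cerebellum, and Pcsk2, its partner, at −0.15 ± 0.05 in cortex (edgeR, adjusted p of 1.0 and 0.434). The next in order were Trhde, which degrades Trh, in cerebellum (−0.08 ± 0.05), Slc18a2 in cortex (0.71 ± 0.39) and striatum (−0.66 ± 0.40), and Cpe, a carboxypeptidase of peptide maturation, in striatum (0.08 ± 0.06), at adjusted p of 0.654 to 1.0. Their median log2 fold changes were −0.01, −0.03 and 0.01, and the sign turned when single mice were left out in each region.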

How the data were processed

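PolyA RNA of 54 libraries was analysed, 3 regions of each of 18 mice, grouped by the genotype and region in the labels. The authors aligned reads to GRCm38 with STAR (version 2.4.2, after FastQC 0.10.1, per the submitters' processing notes), counted them per Ensembl gene with STAR's GeneCounts option and deposited raw counts. The strand column kept is not given in the sources used here. Spike-ins (92) were left out. The members and lists were chosen with earlier results of these data known.

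CPM were counts over all gene counts. Genotypes were compared per region with edgeR 4.0.16 (TMM, quasi-likelihood, robust), a filter of over 4 counts in 8 or more libraries, and 2, 4 and 4 surrogate variables in cerebellum, cortex and striatum (the numbers in the paper, from svaseq in sva 3.50.0), with Benjamini-Hochberg adjustment over all genes. Standard errors were the fold change over the square root of F. Regions were contrasted over all 54 libraries without surrogate variables. Libraries of a mouse come from 1 animal, so mice pair the regions; their deviations correlated with medians of 0.193 (cerebellum and cortex), 0.117 (cortex and striatum) and 0.073 (cerebellum and striatum). The scripts were tested on simulated data. Named were all members, list genes with an adjusted p under 0.05 or otherwise the 2 of lowest p per region, and the 5 genes most like each member. Positions, exons and transcripts are of GENCODE (GRCm38) and promoters of RefSeq (GRCm38.p6), with no entry for Agrp.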

Additional observations from a re-analysis of the deposited data

Results flagged for a closer look

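Each member was looked at in each of the 6 groups of genotype and region, 60 in all, for a library whose gap to the nearest other library was a large part of the group's range on the log2 CPM scale (Dixon's 95% critical value). Chance alone gives about 1 in 20 groups, but the members were chosen with these levels in view, so the values below are a description and are not set against that rate. There were 22 such libraries and genes, 21 of them at the top of their group. Of these, 12 were from M758. In its cortex library they were Pmch at 86.0 CPM, Hcrt at 9.04, Oxt at 9.78, Avp at 11.0, Pomc at 5.37, Agrp at 1.13, Hdc at 7.36, Otp at 3.54 and Sim1 at 2.57, and in its striatum library Pmch at 72.7, Hcrt at 7.15 and Oxt at 10.2. A further 5 were from M762, with Oxt at 12.3 CPM, Otp at 1.77, Sim1 at 1.27 and Hcrt at 0.279 in cortex, and Sim1 at 0.103 in striatum, the last from 3 counts. In the cerebellum of M755, Trh stood at 10.5 CPM and Otp at 5.26, both the highest of 10, and Hdc at 1.29, the lowest of 10. In the cerebellum of M760, Pomc stood at 7.35 CPM. In the cerebellum of M754, Avp stood at 0.119 CPM, from 4 counts. The cause of these values was not tested.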

How the results depend on the processing

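No member had an adjusted p under 0.05 between genotypes in any region under any alternative run, with a lowest adjusted p of 0.298 (Hdc in cortex, without 1 library). Of 119 fold changes recomputed for the 13 tested members over regions, other than by leaving out single mice, 106 kept their sign and 13 did not. The number with an unadjusted p under 0.05 was 1 (DESeq2's Wald test) or 2 (no filter) in cerebellum against 0, 1 (no filter), 0 (without litter 2) or 0 (without M758 and M762) in cortex against 3, and 1 in striatum (no filter, or without M758, M761 and M762) against 0. Leaving out each mouse in turn gave 0 to 2, 0 to 3 and 0 to 1, with at most 1 in 13 of 18 cases in cortex. Without surrogate variables, 0 receptors and 0 processing genes had an unadjusted p under 0.05 in any region. Changes of sign in striatum were Avp at 0.088 (no surrogate variables) and 0.26 (litter and sex), Oxt at 1.23 and 1.13 under the same settings, 0.030 (no filter), 0.12 (without litter 2), 0.19 (without M758, M761 and M762) and 0.086 (means of log2 CPM), Pmch at −0.0079 (without M758, M761 and M762) and Trh at 0.027 (without M754). In cortex they were Pmch at −0.14 (without M758 and M762) and Trh at 0.065 (no filter) and 0.049 (without litter 2). Leaving out each mouse in turn gave −0.21 to 3.58 for Pmch and −0.80 to 0.32 for Trh in cortex, −0.26 to 1.00 for Pomc in cerebellum, and −0.71 to 0.81 for Pmch, −0.62 to 0.48 for Oxt, −0.81 to 0.30 for Avp and −0.55 to 0.072 for Trh in striatum. Without surrogate variables Pmch stood at 3.00 in striatum and 4.81 in cortex. The cause of these changes was not tested, except that Pmch in cortex rests on 1 library, M758.

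With the mouse as a replicate block, the differences of the genotype effect between regions with an unadjusted p under 0.05 went from 2 to 0, both of Agrp, and changed sign for Oxt (−0.25) and Pmch (−0.57) in striatum minus cerebellum and for Trh in cortex and in striatum minus cerebellum (0.68 and 0.47), with no adjusted p under 0.05 in either fit. With DESeq2 size factors that of Otp in cortex minus cerebellum was −0.035. Counting libraries with more than 10 counts in place of more than 4 moved 13 of 30 counts of libraries by over 1.5 times, and at least 0.2 CPM moved 6. At these depths a member with 3 counts or fewer in a library could not be told from 0. The leaving out of libraries by name, and of each mouse, was chosen after seeing the data.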
